A study of Homo sapiens with 19 samples.

Results

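The genes described here are the interleukin 6 (IL6) family cytokine receptors and the signalling chain behind them. They are 10 genes: the ligand IL6, the receptor chains IL6R, IL6ST, LIFR and OSMR, the kinases JAK1 and JAK2, the transcription factor STAT3, and the response genes SOCS3 and BCL3. They were taken by name, as every probe whose RefSeq accession belongs to one of the 10 symbols, which gave 19 of the 50683 probes on the array. All 19 passed the filter on dim probes. KhES-3 hESCs, an established line of human pluripotent cells derived from an embryo, were sampled once at each of 19 times between 3 h and 72 h after the start of induction towards brown adipocytes (BAs), with 1 array per time. Every sample carried the same treatment and differed only in its hours: a serum-free medium in low-attachment dishes with IL-6 at 2.5 ng/ml, FLT3LG at 2.5 ng/ml, IGF-II and VEGFA at 5 ng/ml each, and BMP4 and KITLG at 20 ng/ml each. No untreated or 0 h array and no second array of any time was analysed here, so IL-6 cannot be told apart from the other 5 cytokines or from the change of medium, and each p-value below rests on the scatter of single arrays around a line or curve in time. The sample labels place the starting cells on irradiated mouse feeder cells, while the methods of the study describe feeder-free culture.

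Most IL6 family cytokines signal through IL6ST (gp130), a chain that they share. IL6 first binds IL6R, which brings in IL6ST, whereas LIF signals through LIFR paired with IL6ST, and oncostatin M through IL6ST paired with OSMR or LIFR. The kinases JAK1 and JAK2, bound to the receptor tails, phosphorylate STAT3, which enters the nucleus and switches on target genes. Among these SOCS3 encodes the protein that docks on IL6ST and shuts the kinases off, so that its mRNA is widely used as an early readout of the pathway. In mouse embryonic stem cells this pathway, driven by LIF, sustains self-renewal, whereas human embryonic stem cells in standard culture do not depend on it.

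SOCS3 was highest on the first array, at 3 h, and fell 2.94-fold by 12 h. It then stayed low through 42 h. At 66 h and 72 h it was higher than on any array from 8 h to 60 h, at the scaling used here. This late rise hangs on the scaling. BCL3 was also highest on the first arrays, and STAT3 itself moved within a range of 1.44-fold over the 3 days. IL6ST was above background at every time, whereas IL6R was dim and was not detected on 6 of the 8 arrays between 14 h and 42 h, some of which had a higher detection limit.

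Signals are given as the background-subtracted signal of the probe, scaled so that the 75th percentile of every array sits at 871. A probe was called detected where the scanner software flagged it as well above background, and the lowest signal so flagged was between 19.8 and 73.5 on the 19 arrays. The arrays lay on 3 slides, with 3 to 12 h on slide 1 (6 arrays), 14 to 42 h on slide 2 (8 arrays) and 48 to 72 h on slide 3 (5 arrays, scanned on a later day). Slide and time therefore cannot be told apart across slides, and slopes were also fitted within each slide. The 7 human ES cell markers with a probe were detected on all 19 arrays. Of these POU5F1 (OCT4), the core pluripotency factor, went from a mean of 349260 at 3 to 6 h to 279830 at 60 to 72 h, and NANOG went from 30663 to 37373. DNMT3B went from 181450 to 101130 and ZFP42 from 44263 to 24810. By the slope over 3 to 72 h, 4 of the 7 fell and 0 rose, beside 22.4% and 30.9% of all tested probes. Of 8 fibroblast markers COL3A1 and LUM were detected on 1 array each, POSTN on 2, DCN on 9 and PDGFRB on 17. COL1A1, COL1A2 and THY1 were detected on all 19. THY1, the brightest of the list, ran from 12254 at 36 h to 33070 at 72 h. It was the largest part of the list's summed signal on every array, so that sum mainly follows THY1. Of 7 blood cell markers, PTPRC, CD14 and SPI1 were detected on all 19 arrays and RUNX1 on 18, while CD34 and GATA1 were detected on 0. PTPRC went from a mean of 69.4 at 3 to 6 h to 148 at 60 to 72 h, and CD14 from 189 to 308, whereas RUNX1 went from 228 to 49.3. The summed signal of the fibroblast list ranged from 30649 to 42597 on slide 1, 26772 to 34603 on slide 2 and 26454 to 47183 on slide 3, and that of the blood list from 578 to 668, 738 to 897 and 591 to 849. That of the hepatic-type list (ALB, AFP, TTR, APOA1, APOB) was 1856 to 2401, 1160 to 3919 and 1693 to 6448. This sum joins opposite courses. AFP went from a mean of 1537 at 3 to 6 h to 212 at 60 to 72 h. APOA1 went from 398 to 2375, TTR from 37.8 to 908 and APOB from 32.9 to 100, and ALB was detected on 5 arrays. The part of other cell types in the results below was not tested.

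IL6 itself (chr7:22727200-22731998, GRCh38.p14) was read by 1 probe and detected on all 19 arrays. The array measures the mRNA made by the cells and not the IL-6 protein added to the medium. Its scaled signal was 133, 162, 387, 277, 227 and 195 at 3, 4, 6, 8, 10 and 12 h. On slide 2 it ran from 131 at 24 h to 291 at 14 h with a median of 164, and on slide 3 from 163 at 60 h to 318 at 66 h with a median of 205. The levels of the 3 slides overlapped. The slope over 3 to 72 h was 0.00073 ± 0.0046 (SE) on the log2 scale per hour (limma, adjusted p = 0.91), and the cubic curve also missed the threshold (adjusted p = 0.79). The scatter of single arrays around that curve had an SD of 0.46 (log2). With the 19 levels ranked by size, none of the 18 gaps between neighbours exceeded it. These gaps are not steps from one hour to the next. GDF15, the cytokine the study set beside IL6, went from a mean of 10611 at 3 to 6 h to 62888 at 60 to 72 h and rose over the same arrays (adjusted p = 1.9e-05).

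Among the 11 family ligands, 9 could be tested, of which 2 fell and 0 rose, beside 22.4% and 30.9% of all tested probes. Both that fell are family members that signal through IL6ST. IL11, which uses its own receptor together with IL6ST, had a scaled signal of 2380, 2124, 1871, 1287, 775 and 830 at 3, 4, 6, 8, 10 and 12 h, and between 569 and 1090 at all later times. Its first 4 arrays thus lay above every later one. Its slope was -0.015 per hour over all arrays (adjusted p = 0.034) and -0.19 per hour within 3 to 12 h (adjusted p = 0.0049). CTF1 (cardiotrophin 1) went from a mean of 289 at 3 to 6 h to 152 at 60 to 72 h (adjusted p = 0.00031). LIF, the ligand that maintains mouse stem cells, was detected on all 19 arrays with a lowest level of 301 at 20 h and a highest of 691 at 6 h, and its slope missed the threshold (adjusted p = 0.45). OSM was detected on 7 arrays, CNTF on 4 and IL31 on 0. With the slide as a block, 0 of the ligands passed the test in either direction.

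IL6ST, the shared signalling chain (chr5:55935095-55994963), was lowest on the first array and highest on the last. It read 938 at 3 h, and the other arrays of slide 1 reached at most 1044. On slide 2 it ran from 961 at 24 h to 1254 at 42 h, and on slide 3 it was 1335, 1377, 1170, 1456 and 1561 at 48, 54, 60, 66 and 72 h. All arrays of slide 3 thus lay above all arrays of the first. The mean at 60 to 72 h was 1.42-fold that at 3 to 6 h, and the slope over all arrays was 0.0084 ± 0.0015 per hour (adjusted p = 0.0001). Of the 10 genes 2 rose by this test, IL6ST and LIFR, beside 30.9% of all 32111 tested probes. With each slide given its own level the slope was 0.0055 (adjusted p = 0.42). IL6ST has 7 probes on the array, all tested, of which 5 rose and 0 fell. The probes that did not rise were a dim one detected on 14 arrays, with a slope of -0.010 (adjusted p = 0.066), and a brighter one that went from 260 at 36 h to 643 at 66 h (adjusted p = 0.090).

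LIFR, the receptor chain for LIF (chr5:38474668-38608403), was detected on all 19 arrays. Its scaled signal lay between 85.7 and 146 on slide 1, between 97.4 and 240 on slide 2 and between 167 and 231 on slide 3. Slides 1 and 3 did not overlap, and the highest single value was at 28 h. The slope was 0.013 ± 0.0035 per hour (adjusted p = 0.0049), the mean at 60 to 72 h was 1.39-fold that at 3 to 6 h, and with each slide given its own level the slope was 0.0036 (adjusted p = 0.86). By that fit, called below the slide as a block, 0 of the 10 genes passed in either direction, beside 9.18% of all tested probes. The slope of neither IL6ST nor LIFR passed the test when arrays were scaled to their median (adjusted p = 0.19 and 0.093).

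OSMR, the oncostatin M receptor chain (chr5:38846012-38945579), was lowest at the end of the series. Its scaled signal was 207, 238, 449, 228, 240 and 274 at 3, 4, 6, 8, 10 and 12 h, ran from 196 to 422 with a median of 269 on slide 2, and was 230, 196, 202, 155 and 149 at 48, 54, 60, 66 and 72 h. The last 2 arrays were the lowest of all 19. OSMR was the 1 gene of the 10 that fell over the whole course, beside 22.4% of all tested probes, with a slope of -0.0092 ± 0.0037 per hour (adjusted p = 0.042) and a mean 1.68-fold lower at 60 to 72 h than at 3 to 6 h. That call was lost without the 6, 12, 20, 54, 60, 66 or 72 h array, with adjusted p up to 0.16, over 3 to 54 h (slope -0.0018, adjusted p = 0.80), on log2 hours (adjusted p = 0.24), with the mean of both probes (adjusted p = 0.34), without the filter on dim probes (adjusted p = 0.070) and with the slide as a block (slope -0.00065, adjusted p = 0.98). A second OSMR probe, for another transcript, was detected on 7 arrays and read 442 at 14 h but no more than 44.5 on any other array.

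IL6R, the chain that binds IL6 (chr1:154405343-154469450), was the least often detected of the 4 chains when each was read by its brightest probe. The probe read 53.0, 77.1, 67.0, 56.9, 46.6 and 36.7 at 3, 4, 6, 8, 10 and 12 h, all detected. On slide 2 it was detected on 2 of 8 arrays, at 28 h and 42 h, with signals from 16.7 to 48.5. On slide 3 it was detected at 29.5, 45.6, 62.1 and 76.8 at 48, 54, 60 and 66 h, and not at 72 h. The lowest signal flagged as detected was itself higher on some of the arrays without detection, at 73.5, 53.7 and 37.7 at 14, 16 and 20 h and 52.4 at 72 h, against 19.8 to 30.0 on slide 1. The 72 h signal of 37.5 lay just above the 36.7 detected at 12 h, whereas the lowest flagged signal at 24, 32 and 36 h was near that of slide 1. At 24, 32 and 36 h, also without detection, it was 25.4, 30.5 and 26.2. The signals at 4 h and 66 h were the highest of the course, and those at 14, 16, 20, 24, 32, 36 and 72 h have only a bound. The slope over all arrays was 0.0021 ± 0.0068 (adjusted p = 0.81), while the cubic curve passed the test (adjusted p = 0.00054, and 0.028 with the slide as a block). A second IL6R probe, detected on 8 arrays, also passed the cubic test (adjusted p = 0.0079). The curves of both probes rest in part on undetected signals, so these calls do not establish a dip.

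Besides the members, the receptor list held CNTFR, IL27RA, IL31RA, IL11RA (no probe matched) and the sheddases ADAM10 and ADAM17, which cut IL6R from the cell surface. Of 8 genes tested, 4 rose, 2 fell and 2 did not pass, beside 30.9% of all tested probes that rose and 22.4% that fell, with a median slope of 0.0047 against 0.0024 over all tested probes. CNTFR, which binds ciliary neurotrophic factor, went from a mean of 187 at 3 to 6 h to 361 at 60 to 72 h (adjusted p = 0.022). IL27RA, the receptor for interleukin 27, went from 1401 to 815 (adjusted p = 0.00091). ADAM10 went from 736 to 1019 (adjusted p = 1.1e-05). With the slide as a block 2 of the list rose and 0 fell.

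JAK1 (chr1:64833229-65067746) and JAK2 (chr9:4984390-5129948), the kinases bound to the receptor tails, were detected on all 19 arrays with narrow ranges. JAK1 had its lowest scaled signal, 171, at 72 h, its highest, 319, at 14 h, and a median of 227. JAK2 ran from 93.2 at 14 h to 146 at 60 h with a median of 120. Neither had a slope past the threshold (JAK1 -0.0041 ± 0.0021, adjusted p = 0.11; JAK2 0.00026 ± 0.0019, adjusted p = 0.92). JAK1 fell when arrays were scaled to their median, to spike-in RNA or by quantiles (adjusted p = 0.0036, 0.015 and 0.012).

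STAT3 (chr17:42313324-42388442), the transcription factor at the end of the chain, kept a high and steady level with a shallow dip. The probe read 746, 668, 704, 587, 611 and 589 at 3, 4, 6, 8, 10 and 12 h. It was 517, 527, 557, 619, 601, 618, 697 and 652 at 14, 16, 20, 24, 28, 32, 36 and 42 h, and lay between 636 and 719 from 48 h on. By this probe the dip centred on 14 to 16 h, and the highest and the lowest array differed 1.44-fold. The 14 h and 16 h arrays, the first of slide 2, had the most outlier spots (814 and 608). They also had the fewest probes detected (49.5% and 52.0%). There was no slope over the whole course past the threshold (0.0024 ± 0.0017, adjusted p = 0.24), and the cubic curve passed (adjusted p = 0.0020, and 0.022 with the slide as a block). Within 14 to 42 h STAT3 rose by 0.014 ± 0.0034 per hour (adjusted p = 0.015), the 1 call among the 10 genes in those hours, beside 16.1% of all tested probes. That call was lost without the 14, 16 or 36 h array (adjusted p = 0.069, 0.052 and 0.051). The second STAT3 probe, which the array carries in 10 copies, had a slope of 0.013 in the same hours (adjusted p = 0.061). Its lowest signal, 272, came at 8 h and its highest, 419, at 28 h, so it did not place the low at 14 to 16 h.

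Of the 11 kinases and STATs tested, 3 rose, 1 fell and 7 did not pass, beside 30.9% of all tested probes that rose and 22.4% that fell, with a median slope of 0.0029. The risers were STAT2, which works in interferon signalling, from a mean of 4512 at 3 to 6 h to 7740 at 60 to 72 h (adjusted p = 2.4e-06), STAT6, the interleukin 4 factor, from 2156 to 3065 (adjusted p = 0.0024), and STAT5A, from 178 to 213 (adjusted p = 0.044). STAT5B went from 1332 to 1067 (adjusted p = 0.0052). None of these 4 calls was kept with the slide as a block, and 1 gene rose and 3 fell when arrays were scaled to their median.

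SOCS3 (chr17:78356778-78360925) encodes the inhibitor that STAT3 induces and that acts back on IL6ST. It read 802, 639, 468, 315, 239 and 273 at 3, 4, 6, 8, 10 and 12 h. It was 195, 227, 189, 175, 243, 157, 203 and 208 at 14, 16, 20, 24, 28, 32, 36 and 42 h, and 230, 221, 274, 348 and 351 at 48, 54, 60, 66 and 72 h. The first 3 arrays lay above all others, the lowest value came at 32 h, 5.12-fold under the first, and the last array was 2.24-fold above that low. Within 3 to 12 h the slope was -0.19 ± 0.026 per hour (adjusted p = 0.0012). SOCS3 was the 1 call among the 10 genes in those hours, beside 4.65% of all tested probes, and passed whichever 1 array was left out. From 14 to 42 h the slope was -0.0014 ± 0.0079 (adjusted p = 0.93). From 48 to 72 h it was 0.031 ± 0.011 (adjusted p = 0.053). With that, 0 of the 10 genes passed in the last stretch, beside 20.2% of all tested probes. Before scaling, the 66 h and 72 h arrays had the lowest 75th percentiles of all, 655 each against a median of 922. Their signals were thus scaled up the most. Scaling to spike-in RNA shifts the slopes of all genes in these hours alike, and that of IL6ST went from 0.0089 to -0.042. The late rise of SOCS3 therefore hangs on the scaling. Over the whole course a straight line missed the threshold (adjusted p = 0.33) and the cubic curve passed (adjusted p = 2.5e-06, and 0.0023 with the slide as a block).

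BCL3 (chr19:44747705-44760044), a nuclear partner of NF-kB that STAT3 can induce, had a similar course with more scatter. It read 1971, 2322, 1684, 1478, 1258 and 1301 at 3, 4, 6, 8, 10 and 12 h, ran from 633 at 16 h to 1149 at 36 h on slide 2, and was 871, 884, 1282, 1367 and 1134 at 48, 54, 60, 66 and 72 h. All arrays of slide 1 lay above all arrays of the second. The slope within 3 to 12 h was -0.091 ± 0.032 (adjusted p = 0.13), and the cubic curve passed (adjusted p = 0.00089), though not with the slide as a block (adjusted p = 0.34). By the cubic test 7 of the 10 genes passed, beside 76.8% of all tested probes, and with the slide as a block 3 did (IL6R, STAT3 and SOCS3), beside 31.6%. The calls of IL6R rest in part on undetected signals. Slopes that differed between the hours of different slides were found for SOCS3 and STAT3 between slides 1 and 2, beside 4.8% of all tested probes, for 0 of the 10 genes between slides 2 and 3, beside 18.6%, and for SOCS3 and BCL3 between slides 1 and 3, beside 11.1%. The BCL3 difference was lost without any 1 of most of the arrays. With a gene's 19 levels ranked by size, few of the 18 gaps between neighbours exceeded the residual SD. The count was 3 for SOCS3 (SD 0.26, log2), 1 for BCL3 (0.31) and 2 for OSMR (0.32). It was 0 for each of the other 7 genes. Ranked gaps leave out the hours, so they cannot tell whether a course in time exceeds the scatter.

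**Figure D1:**
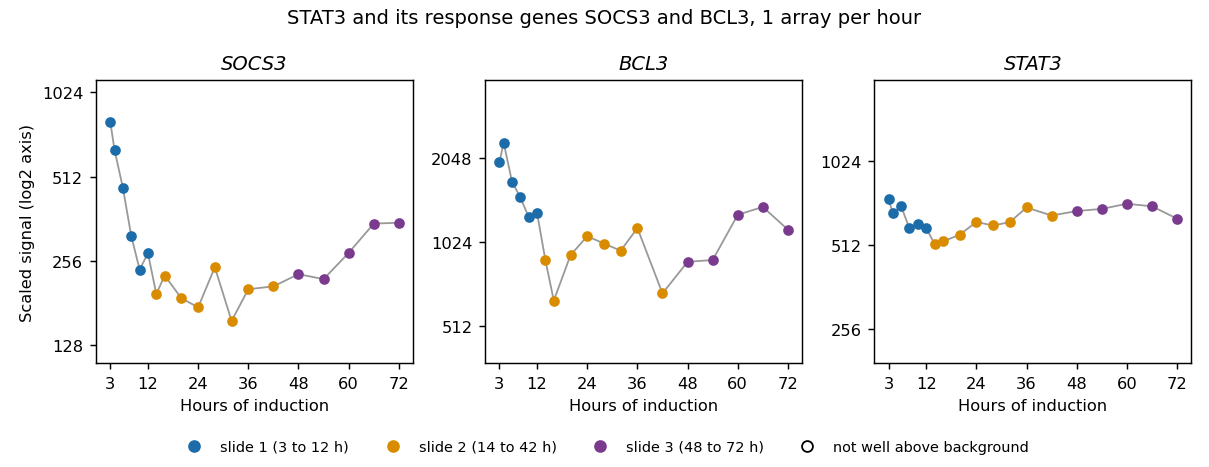
Scaled signal of SOCS3, BCL3 and STAT3 (log2 axis, an equal fold range in each panel) against hours of induction, 1 point per array, coloured by slide. SOCS3 drops from 802 at 3 h to 239 at 10 h, BCL3 from 2322 at 4 h to 633 at 16 h, while STAT3 stays between 517 and 746.

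**Figure D2:**
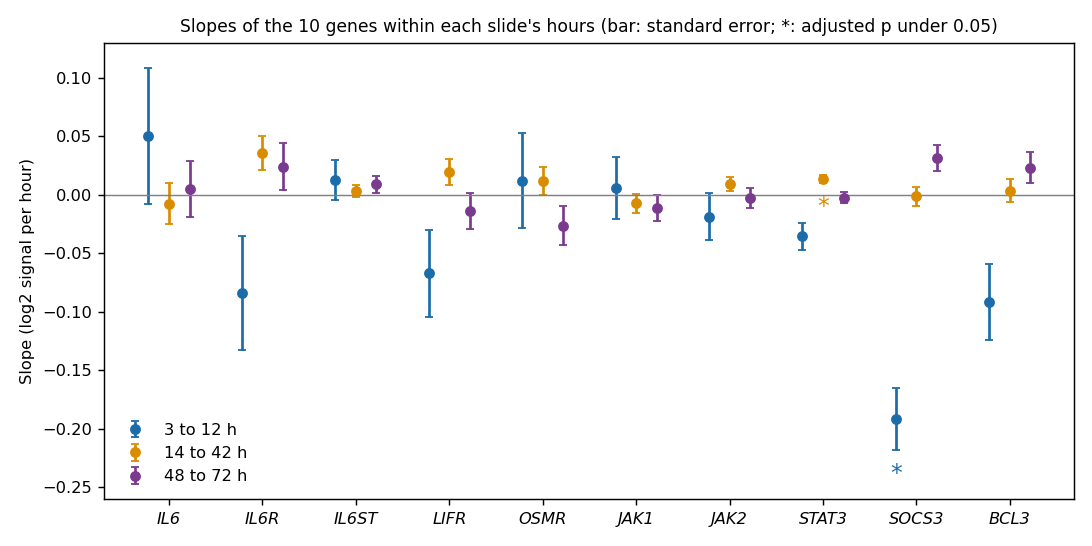
Slope of log2 signal per hour for the 10 genes within the hours of each slide, with the standard error as a bar and an asterisk where the adjusted p is under 0.05. SOCS3 from 3 to 12 h (-0.19) and STAT3 from 14 to 42 h (0.014) are the marked slopes.

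The stretches of sequence ahead of the genes' starts are shown for what STAT3 is known to bind, the palindrome TTCNNNGAA, which reads the same on both strands. RefSeq windows on GRCh38.p14, from 250 bases before to 50 after each start, numbered 35116, and 7.66% held the motif. The 10 members had 18 windows, at least 1 for each gene, and 2 of the 18 held it, both of LIFR. Among the STAT3 response genes described below 13 had a window. They had 18 windows, of which 3 held the motif, those of BCL6, IRF1 and ICAM1. The lines give both LIFR stretches, on the minus strand at chr5:38595517-38595615 and chr5:38557596-38557694, then IRF1 (minus strand, chr5:132490844-132490942) and ICAM1 (plus strand, chr19:10271000-10271098), each 5′ to 3′ with the motif in capitals. The last line gives the 250 bases before the first listed SOCS3 start (minus strand, chr17:78360926-78361175), shown because SOCS3 had the steepest fall of the 10 genes within 3 to 12 h, in which these letters were not found. A match is a description of the letters and was not tested for binding.
LIFR, first window: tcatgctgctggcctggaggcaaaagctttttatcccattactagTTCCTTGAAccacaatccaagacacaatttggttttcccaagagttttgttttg
LIFR, second window: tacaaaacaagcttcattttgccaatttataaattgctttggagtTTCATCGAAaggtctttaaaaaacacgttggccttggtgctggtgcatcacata
IRF1: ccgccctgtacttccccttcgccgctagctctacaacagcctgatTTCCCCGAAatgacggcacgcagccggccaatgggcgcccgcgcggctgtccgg
ICAM1: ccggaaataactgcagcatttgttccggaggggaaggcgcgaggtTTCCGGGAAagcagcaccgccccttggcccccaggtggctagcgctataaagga
SOCS3: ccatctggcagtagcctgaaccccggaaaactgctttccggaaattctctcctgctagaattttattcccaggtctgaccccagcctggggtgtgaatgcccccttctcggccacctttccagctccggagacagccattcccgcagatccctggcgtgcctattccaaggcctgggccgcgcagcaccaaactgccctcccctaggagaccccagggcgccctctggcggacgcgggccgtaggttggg

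Of 20 genes listed as responding to STAT3 in many cell types, SOCS3 and BCL3 among them, 19 could be tested. Over the whole course 4 rose, 1 fell and 14 did not pass, beside 30.9% and 22.4% of all tested probes, with a median slope of -0.0010. In the first hours the list ran downward: 15 of the 19 had a negative slope within 3 to 12 h, against 46.8% of all tested probes, with a median of -0.075 per hour against 0.0026. The slopes of 3 of them passed the test, all falling, beside 4.65% of all tested probes in either direction. Besides SOCS3 these were ZFP36, which degrades cytokine mRNAs, and MCL1, a survival factor, named here after their values were seen. ZFP36 went from 4323 at 3 h to 2151 at 12 h (slope -0.13, adjusted p = 0.032) and MCL1 from 7276 to 4287 (slope -0.10, adjusted p = 0.049). The immediate early gene FOS, with 1090 at 3 h and 450 at 12 h, had a slope of -0.20 that missed the threshold (adjusted p = 0.054). Many of these genes also answer to serum, growth factors and handling, and the part of STAT3 in their course was not tested.

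Several response genes followed courses unlike that of SOCS3. ICAM1, an adhesion molecule, had a scaled signal between 147 and 238 on slide 1, 129 at 14 h, 543 at 42 h and 1709 at 72 h. Its slope was 0.049 per hour (adjusted p = 1.1e-08). BCL6, a transcriptional repressor, went from a mean of 626 at 3 to 6 h to 1880 at 60 to 72 h (adjusted p = 0.00033), and MUC1, a membrane mucin, from 440 to 951 (adjusted p = 0.0016). BCL2L1, which encodes BCL-XL, went from 1029 to 628 (adjusted p = 0.0022). With the slide as a block 1 of the list rose and 0 fell, and when arrays were scaled to their median 3 rose and 4 fell.

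The genes that restrain the pathway or branch from it formed a list of 19, all tested, of which 2 rose, 9 fell and 8 did not pass, beside 30.9% of all tested probes that rose and 22.4% that fell, with a median slope of -0.0059. SOCS2, which restrains growth hormone signalling, went from a mean of 5138 at 3 to 6 h to 2312 at 60 to 72 h (adjusted p = 3.7e-05). SOCS6 went from 141 to 65.2 (adjusted p = 0.0080) and PIAS2, a SUMO ligase, from 4135 to 2533 (adjusted p = 0.021). The 2 that rose were PIAS1, another SUMO ligase, from 583 to 1111 (adjusted p = 4.3e-06) and SOCS4 from 3954 to 5803 (adjusted p = 0.00012). Within 3 to 12 h 2 of the list fell, SOCS3 and CISH, the latter named after its values were seen and going from 167 at 3 h to 115 at 12 h (adjusted p = 0.021). With the slide as a block 2 of the list fell and 0 rose.

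Acute phase genes, the liver's response to IL6, were detected to very different degrees. Of 12 in the list, 4 (SERPINA1, SERPINA3, HP and ORM1) were detected on all 19 arrays and 3 (FGA, LBP and SAA1) on 0. Of 7 tested, 3 rose and 1 fell, beside 30.9% and 22.4% of all tested probes. SERPINA3, a secreted protease inhibitor, went from a mean of 115 to 208 (adjusted p = 2.0e-05), and HP (haptoglobin) from 312 to 194 (adjusted p = 0.00049). The other risers, FGG and A2M, were detected on 5 arrays each, the fewest the filter allowed. Their means at 3 to 6 h were both 11.4, under the lowest flagged signal of any array (19.8). These 2 calls thus rest in part on undetected early signals. Of the 4 genes that STAT3 drives in naive pluripotent cells, KLF4 rose, from 243 to 351 (adjusted p = 0.0014), and TFCP2L1, KLF5 and GBX2 did not pass over the whole course. GBX2 went from 151 at 3 h to 37.5 at 12 h, and its slope within those hours was -0.22 (adjusted p = 0.018).

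The genes whose courses were most like those of SOCS3, STAT3 and IL6ST over the 19 arrays are given as a description, since all share the arrays and the slides. Nearest to SOCS3 were NOC3L (Pearson r = 0.953), ID3 (0.946), LHFPL2 (0.942), PHF14 (0.925) and ITPRIP (0.921). ID3, a direct target of BMP signalling, read 22750 on the 3 h array and 7999 on the 72 h array, with its lowest signal, 3265, at 32 h. Nearest to STAT3 were GLS2 and PPM1M (both 0.894), GTF2B (0.892), USP44 (0.888) and IAH1 (0.876). Of these GLS2, GTF2B, USP44 and IAH1 had their lowest level at 14 h, as the brighter STAT3 probe had. Nearest to IL6ST were NQO2 (0.909), FZD4 (0.906), P4HTM (0.887), C19orf25 (0.883) and OGDHL (0.881).

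The size and in part the sign of the late changes hung on the scaling. The difference between 60 to 72 h and 3 to 6 h had a median over all tested probes of 0.13 (log2) at the scaling used above, -0.24 where arrays were matched on their median, -0.52 where they were matched on spike-in RNA and 0.02 after quantile normalisation. For SOCS3 the difference was -0.95, -1.32, -1.59 and -0.91 in that order, for BCL3 -0.65, -1.02, -1.30 and -0.56, and for OSMR -0.75, -1.12, -1.39 and -0.73. All 3 were lower late than early under each scaling, and by more than the median probe. IL6ST differed by 0.51, 0.14, -0.14 and 0.53 and LIFR by 0.48, 0.11, -0.17 and 0.18, so that both turned with spike-in RNA while lying above the median probe under each.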

How the data were processed

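Total RNA of 19 samples was labelled with Cy3 and hybridised to one-colour Agilent human arrays. For each array the authors deposited the output of Agilent Feature Extraction 10.10.1.1, in which the processed signal is an intensity with background subtracted and no scaling between arrays, with flags for spots well above background. They also deposited a table of intensities, equal to the processed signal times 1 factor per array and blank below background. Each array had 61657 spots that were not controls, of which 232 to 814 were left out as outliers, and 49.5% to 64.7% of probes were well above background. The number of arrays limits the precision.

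Copies of a probe were averaged, log2 signals were scaled to the array's 75th percentile, and 28174 of 50683 probes were named through RefSeq (GRCh38.p14), covering 20503 genes. A gene with several probes was read by its brightest. limma 3.58.1 in R 4.3.3 fitted a slope on hours, a cubic curve, and slopes within each slide to the 32111 probes that were well above background on 5 or more arrays, with Benjamini-Hochberg adjustment over all of them and calls at an adjusted p under 0.05. On simulated data with 200 changed probes, 185 slopes, 174 curves and, within slides, 95 to 107 slopes were recovered, with 2 to 10 false calls. The simulated noise was independent between arrays, without effects of slide or scaling, so these counts do not cover errors from either. Alternatives were scaling to the array median, to spike-in RNA or by normexp (offset 50) and quantiles, the deposited table, other filters, the mean of a gene's probes, each array left out, the slide as a block, log2 hours and 3 to 54 h.

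Named genes were the 10 members, GDF15, the 5 genes most like SOCS3, STAT3 and IL6ST, and from each of 11 lists up to 3 that rose and 3 that fell most among those past the test. Only some of these are given in the text. ADAM10, LIF, NANOG, FOS, GBX2, SPI1, THY1, FGG and A2M fall outside that rule and were named after their values were seen. The members and lists were chosen with earlier results of these data known, as were the tests of differences between slopes. No unassigned columns of sample values were present.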

Additional observations from a re-analysis of the deposited data

Results flagged for a closer look

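The course of 3 of the 10 genes differed between the hours of different slides, by a test of the difference of slopes in the same limma fit that was chosen after the data were seen. For SOCS3 the slope within 14 to 42 h was higher than within 3 to 12 h by 0.19 ± 0.027 (SE, log2 per hour, adjusted p = 0.0016), and the slope within 48 to 72 h was higher than within 3 to 12 h by 0.22 ± 0.028 (adjusted p = 0.00039). For STAT3 the slope within 14 to 42 h was higher than within 3 to 12 h by 0.049 ± 0.012 (adjusted p = 0.029). For BCL3 the slope within 48 to 72 h was higher than within 3 to 12 h by 0.11 ± 0.035 (adjusted p = 0.047). Such a difference was called for 4.8% of all tested probes between slides 1 and 2 and for 11.1% between slides 1 and 3. With spike-in RNA the adjusted p for SOCS3 between slides 1 and 2 was 0.082, for STAT3 0.93 and for BCL3 0.39. The STAT3 difference was lost without the 3, 4, 10 or 12 h array, with adjusted p up to 0.20, and the BCL3 difference without any 1 of the arrays at 3, 4, 6, 8, 10, 12, 14, 20, 28, 32, 48, 54 or 66 h, with adjusted p up to 0.16. Hours and slide cannot be told apart in these differences.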

How the results depend on the processing

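No paired analysis was possible because no hour has more than 1 array. Of the 10 genes 2 rose and 1 fell over 3 to 72 h, with 9926 probes rising and 7207 falling. With the array median 0 genes rose and 2 fell (4678 and 11117 probes), with spike-in RNA 0 and 4 (1485 and 11187), with the slide as a block 0 and 0 (1513 and 1434), and with the array median and the slide as a block, added after the data were seen, 0 and 0 (831 and 3001). The count that fell was 2 after normexp and quantiles, on log2 hours and over 3 to 54 h, and 0 without the filter and with the mean of all probes. It was OSMR and JAK1 after normexp and with the array median, and SOCS3 and BCL3, not OSMR, on log2 hours and over 3 to 54 h. The slope of IL6ST turned to -9.7e-05 with spike-in RNA and that of LIFR to -0.000465 with the array median and the slide as a block. Within 48 to 72 h the slope of IL6ST turned to -0.042 with spike-in RNA, and the late minus early differences of IL6ST and LIFR turned to -0.14 and -0.17. The cubic test called 7 genes and 24659 probes, and 3 and 10153 with the slide as a block. Within 14 to 42 h 1 gene was called, and 0 with the array median, spike-in RNA or separate fits. Within 48 to 72 h 0 were called, 6 with spike-in RNA, and 1 with the deposited table or with probes detected on all 19 arrays. Differences between slopes were called for 2 genes between slides 1 and 2 (0 with spike-in RNA, 1 without the filter), 0 between slides 2 and 3 (4 with spike-in RNA, 1 with the array median, with all 19 arrays detected or with the mean of all probes) and 2 between slides 1 and 3 (1 with the array median, spike-in RNA or no filter). Leaving out 1 array at a time gave 2 to 2 genes rising and 0 to 1 falling (9301 to 10285 and 6734 to 7244 probes), 6 to 8 genes and 23548 to 24689 probes by the cubic test, 1 to 2, 0 to 2 and 0 to 1 genes within the slides, and 1 to 3, 0 to 1 and 1 to 3 for the differences. The cause of these changes was not tested. SOCS3 within 3 to 12 h kept its sign under each alternative run. Signal over background limits IL6R, detected on 12 of 19 arrays.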

Other observations

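Some probes of the family stood far above their other arrays on 1 array, in a search over the listed genes made after the data were seen, with a gap of at least 2 on the log2 scale. IL31RA read 349 at 72 h, the 1 array on which it was detected, and no more than 22.6 elsewhere. IL27 read 433 at 8 h and no more than 98.8 elsewhere. The second OSMR probe read 442 at 14 h. FGB (76.2 at 66 h) and LUM (66.9 at 10 h) were detected on 1 array each. The array at 60 h held the highest values of FOS (1670), JUNB (221) and ZFP36 (4627), and SOCS3 read 274 on it, below its values at 66 h and 72 h.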
